A study of Mus musculus with 48 samples.

Results

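The genes described here are 9 genes used as markers of retinal bipolar cells: Grm6, Trpm1, Gng13, Pcp2, Cabp5, Prkca, Cplx3, Cplx4 and Vsx1. They were chosen by symbol from a fixed list and are 9 of the 54331 genes in the deposited tables of 48 mouse RNA libraries. The study collected RNA from axons of retinal ganglion cells (RGC) in the superior colliculus (SC) or the lateral geniculate nucleus (LGN) of the brain, and from eye cells. EU libraries hold RNA that carried ethynyl uridine, a label injected into the eye, and were purified by that label, and the SC EU protocol pooled 3 animals. Axon-TRAP libraries hold RNA pulled down with tagged ribosomes. What drives the tag is not stated in the labels.

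The SC axon-TRAP libraries came from mice labelled fmr1ko at P14 (n = 3) and from wild-type mice at P10 (n = 3) and P14 (n = 5). The SC EU libraries came from axotomized sarm1ko mice at P14 with a 7-day chase (n = 3), from mice labelled fmr1ko at P14 (n = 3), and from wild-type mice at P10 with a 4-day chase (n = 3), P10 (n = 3), P14 (n = 5) and 8 weeks (n = 3). Wild-type LGN at P14 gave axon-TRAP libraries (n = 3) and EU libraries (n = 2). The eye libraries, all at P14, were FACS-sorted cells from mice labelled fmr1ko (n = 3) and from wild-type mice (n = 3), and wild-type RGC purified by immunopanning with EU capture (n = 3) or as total RNA (n = 3). All groups except the sarm1ko group were uninjured. The labels do not say that the libraries of a group came from separate animals, and each p-value therefore rests on the spread among libraries, which may be technical.

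Bipolar cells are the interneurons of the retina that carry signals from rods and cones to amacrine cells and RGC. At the dendrites of ON bipolar cells, glutamate from photoreceptors acts on the receptor encoded by Grm6, whose G protein, with a gamma subunit encoded by Gng13, keeps the cation channel encoded by Trpm1 closed in the dark. At their axon terminals, ribbon synapses release glutamate, and the complexins encoded by Cplx3 and Cplx4 act on vesicle fusion there. Several of the 9 genes are also used elsewhere: Prkca, a protein kinase C, in many tissues, Pcp2 in cerebellar Purkinje cells, Cplx3 in subplate neurons of the cortex, and Cplx4 in rods.

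OTX2 and CRX, transcription factors of photoreceptors and bipolar cells, bind DNA with the core TAATCC, so promoters were searched for these 6 letters on both strands. RefSeq promoters (250 bases before to 50 after the annotated start, GRCm38.p6) were matched for 8 of the 9 genes. The core occurred in promoters of 2 of these 8 genes (25%), Cabp5 and Trpm1, against 8.14% of 27025 genes in the whole table. By promoter, the core was in 2 of 13 (15.4%), against 7.06% of 32851 promoters. Cabp5 had it at positions -160 and -41 from the start, and the first Trpm1 promoter had its reverse complement at -34. The Grm6 promoter held no match. The sequences show where the matches lie, with capitals marking the core or its reverse complement, from chr7:13397905-13398204 (+), chr7:64153585-64153884 (+) and chr11:50850435-50850734 (+).
Cabp5: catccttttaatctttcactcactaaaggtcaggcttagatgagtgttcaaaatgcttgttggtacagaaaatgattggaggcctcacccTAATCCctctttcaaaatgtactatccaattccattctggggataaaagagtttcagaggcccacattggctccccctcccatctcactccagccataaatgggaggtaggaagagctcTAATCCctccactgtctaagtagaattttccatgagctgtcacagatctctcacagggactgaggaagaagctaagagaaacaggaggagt
Trpm1: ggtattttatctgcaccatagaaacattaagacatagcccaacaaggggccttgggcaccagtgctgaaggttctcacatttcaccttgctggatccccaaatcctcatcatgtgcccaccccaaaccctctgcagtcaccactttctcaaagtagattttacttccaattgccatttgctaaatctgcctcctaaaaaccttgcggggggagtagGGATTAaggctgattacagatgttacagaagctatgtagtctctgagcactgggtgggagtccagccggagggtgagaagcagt
Grm6: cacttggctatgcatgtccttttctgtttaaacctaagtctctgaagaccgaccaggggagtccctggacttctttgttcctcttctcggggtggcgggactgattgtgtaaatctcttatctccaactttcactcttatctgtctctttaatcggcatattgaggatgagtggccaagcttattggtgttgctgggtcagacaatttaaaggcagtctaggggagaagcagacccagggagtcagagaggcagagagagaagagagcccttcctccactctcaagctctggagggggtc
These matches describe letters in the windows, and no binding was measured in these data. Otx2 itself had 415 to 487 TPM in wild-type FACS libraries and 73.2 to 502 TPM in immunopanned EU libraries.

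In GENCODE M21 on GRCm38 the genes lie on 7 chromosomes, all are protein coding, and values are per gene over all annotated exons. Grm6 is at chr11:50850685-50866208 on the + strand, Trpm1 at chr7:64153835-64269775 (+), Gng13 at chr17:25717171-25719406 (+), Pcp2 at chr8:3623371-3625545 on the - strand, Cabp5 at chr7:13398132-13408887 (+), Prkca at chr11:107933387-108343928 (-), Cplx3 at chr9:57599992-57606281 (-), Cplx4 at chr18:65955722-65970237 (-) and Vsx1 at chr2:150680702-150689360 (-). Pcp2 shares 941 of its 1828 exonic bases with Pet100 on the opposite strand, and Gng13 shares 399 of 773 with Chtf18. The strand setting of the quantification is not stated in the labels, so the levels of Pcp2 and Gng13 are uncertain. Overlaps of Grm6 with Gm12660 (599 bases), Prkca with Apoh (30 bases) and Trpm1 with Gm44722 (12 bases) were smaller shares of the gene.

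The libraries held 2558141 to 48263706 estimated counts (median 22212787). Several libraries go against their labels or stand apart. The library labelled fmr1ko axon-TRAP replicate 2 had a mean Spearman correlation of 0.873 with the wild-type FACS eye libraries and 0.615 with its own group. Its rod genes summed to 109800 TPM, where the other 35 SC and LGN libraries had at most 151.8 TPM, and its oligodendrocyte genes to 23.2 TPM, where its group's other libraries had 5295 and 9876 TPM. Values of that group are given by library where a result turns on them. Immunopanned total RNA replicate 1 correlated at 0.182 with its own group and had 99.7 TPM of rod genes against 8576 and 9639 TPM in replicates 3 and 2. Immunopanned EU replicate 1 had 110400 TPM of rod genes, as the FACS libraries did (97830 to 187000 TPM), against 4865 and 8477 TPM in replicates 2 and 3.

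Defining RGC genes differed among the eye libraries. Pou4f2, an RGC transcription factor, had 0 to 2.68 TPM in immunopanned EU libraries, 0 to 0.69 TPM in immunopanned total RNA and 0 in all 3 wild-type FACS libraries. Sncg, an RGC gene, had 3.68, 48.7 and 74.2 TPM (lowest, median and highest) in immunopanned EU libraries and 1.12 to 3.55 TPM in wild-type FACS libraries, and Pou4f1, a factor of the same family as Pou4f2, had 0.222 to 43.4 TPM and 0.0287 to 0.574 TPM. Slc17a6, the vesicular glutamate transporter of RGC, had 0.0333 to 2.10 TPM in immunopanned EU and 0 to 0.0713 TPM in wild-type FACS libraries. The FACS libraries are labelled only as eye cells, and they were led by rod genes. The gene knocked out by label was also checked. Fmr1 had 2.27 to 15.4 TPM in SC EU libraries labelled fmr1ko and 0 to 6.99 TPM in wild-type SC EU libraries at P14, 0.0584 to 6.01 TPM in the axon-TRAP libraries labelled fmr1ko and 1.27 to 5.37 TPM in wild-type ones at P14, and 2.58 to 26.7 TPM in FACS libraries labelled fmr1ko and 5.48 to 21.2 TPM in wild-type ones. These ranges overlap, so the genotype of the libraries labelled fmr1ko is not borne out by Fmr1. Which part of the gene was deleted is not stated in the labels. Sarm1 had 0.795 to 7.63 TPM in sarm1ko libraries, against 12.9 to 25.2 TPM in wild-type 4-day chase libraries and 4.80 to 39.6 TPM in wild-type P14 EU libraries. The sarm1ko range overlapped that of the P14 EU libraries but not that of the chase libraries. In sarm1ko libraries, CT010467.1, a transcript annotated as ribosomal RNA, took 27.4 to 48.5% of estimated counts, and mitochondrial genes took 13.1 to 31.4%. Sarm1 was not rescaled without them, so its genotype check holds on the deposited scale only.

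The 9 genes fell into 2 patterns across the SC and LGN libraries. Without the library labelled fmr1ko axon-TRAP replicate 2, Cplx4 reached at most 0.83 TPM and Cabp5 0.995 TPM in the other 35, and 19 and 24 of these had no count of Cplx4 and Cabp5. Vsx1 reached 0.923 TPM with 18 of 35 at 0, Trpm1 1.64 TPM with 6 at 0, and Grm6 3.69 TPM with 19 at 0. Gng13, Cplx3 and Prkca were detected in all 36 SC and LGN libraries and Pcp2 in 28 of 36, at up to 49.2, 56.7, 12.6 and 42.6 TPM.

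**Figure D1:**
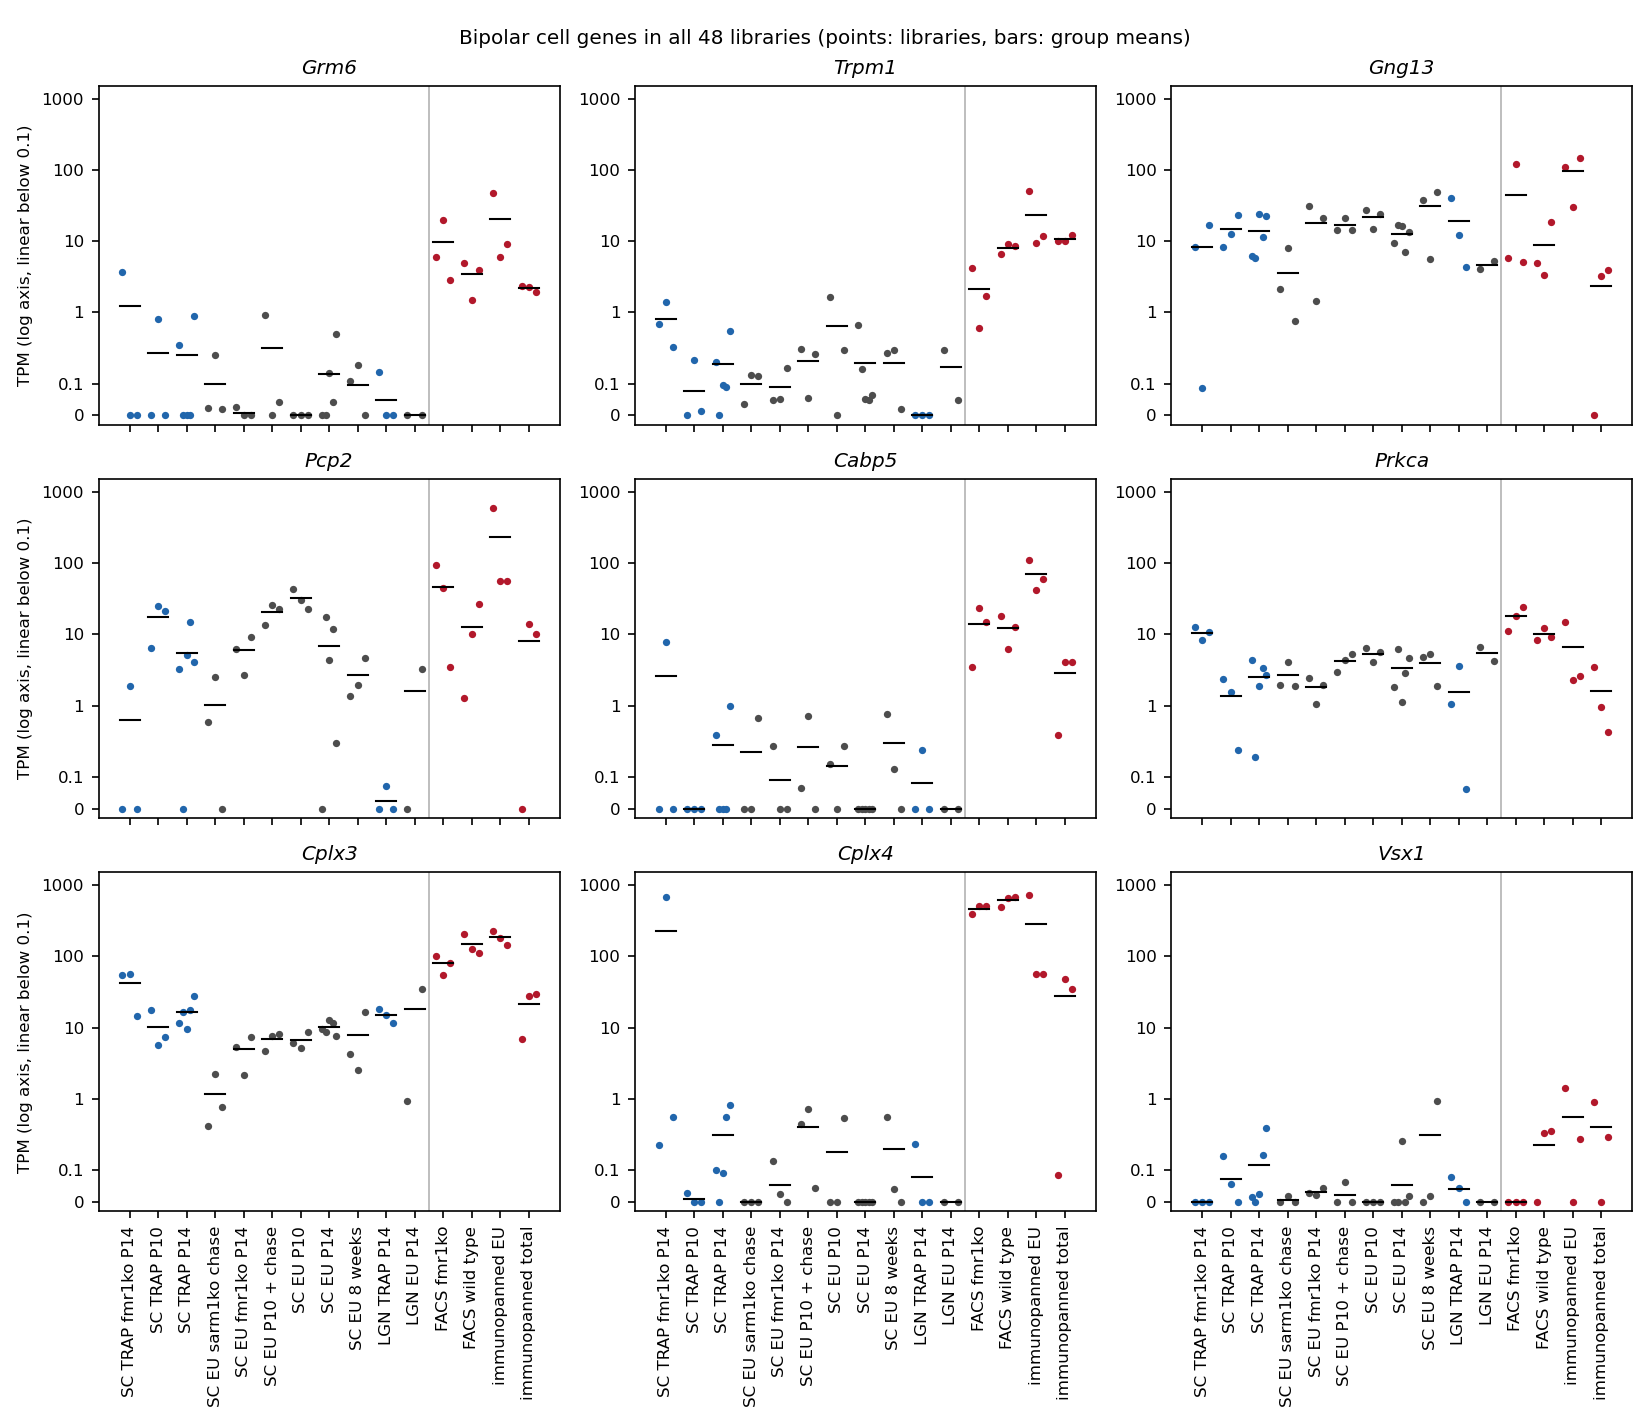
TPM of each bipolar cell gene (log axis, linear below 0.1) in the 48 libraries by group, with points for libraries, bars for group means, blue for axon-TRAP, grey for EU from SC and LGN, and red for eye cells right of the line. Cplx4 sits at or below 0.83 TPM in every SC and LGN library except 1 axon-TRAP library labelled fmr1ko, which has 686 TPM, while Gng13, Prkca and Cplx3 have counts in all of them.

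Among the receptor cascade genes, Grm6 had its highest mean in immunopanned EU (20.7 ± 22.9 TPM, SD, n = 3), followed by FACS cells labelled fmr1ko (9.67 ± 9.17), wild-type FACS cells (3.43 ± 1.73) and immunopanned total RNA (2.20 ± 0.251, n = 3 each). Each of these groups overlapped the next in the order. The SC and LGN group means were 0 to 1.23 TPM, and the highest of them rested on 1 library, labelled fmr1ko axon-TRAP replicate 1, with 3.69 TPM from 201 estimated counts.

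Trpm1 averaged 23.6 ± 22.8 TPM in immunopanned EU, 10.7 ± 1.39 in immunopanned total RNA, 8.04 ± 1.39 in wild-type FACS cells and 2.16 ± 1.81 in FACS cells labelled fmr1ko (SD, n = 3 each). The total RNA and the wild-type FACS libraries did not overlap, nor did the wild-type FACS libraries and those labelled fmr1ko. Between the FACS groups, 16.1% of tested genes were separated with the libraries labelled fmr1ko below. For total RNA against FACS cells that share was not computed. The SC and LGN means were 0 to 0.809 TPM, the highest in the axon-TRAP libraries labelled fmr1ko, where replicates 1 to 3 had 0.689, 1.41 and 0.33 TPM. In immunopanned total RNA, Trpm1 had 9.89, 9.93 and 12.3 TPM in replicates 1 to 3. Crystallin and mitochondrial genes and CT010467.1, a transcript annotated as ribosomal RNA, took unequal shares of these libraries, and with TPM rescaled without them Trpm1 had 9.90, 79.0 and 89.9. Replicate 1 was therefore level with the others only on the deposited scale. Cplx4 had 0.0842 TPM in replicate 1 and 48.01 and 34.5 TPM in replicates 2 and 3, a gap present on both scales.

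Gng13 was not ordered by tissue. Its mean was 96.2 ± 60.02 TPM in immunopanned EU and 44.5 ± 67.6 TPM in FACS cells labelled fmr1ko, but 8.86 ± 8.22 TPM in wild-type FACS cells and 2.38 ± 2.10 TPM in immunopanned total RNA (SD, n = 3 each). SC EU libraries at 8 weeks averaged 30.7 ± 22.5 TPM and at P10 22.1 ± 6.71 TPM (n = 3 each), above the wild-type FACS mean. Every neighbouring pair in the order of the 15 groups overlapped. The mean of 44.5 TPM rested on 1 FACS library labelled fmr1ko with 123 TPM, where the other libraries of that group had 5.81 and 5.14 TPM. Chtf18, the gene on the opposite strand, had group means of 0.0431 to 10.8 TPM.

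Cabp5, which encodes a calcium-binding protein of rod bipolar and some cone bipolar cells, averaged 70.6 ± 36.3 TPM in immunopanned EU, 13.8 ± 9.81 in FACS cells labelled fmr1ko, 12.2 ± 5.77 in wild-type FACS cells and 2.82 ± 2.11 in immunopanned total RNA (SD, n = 3 each). Immunopanned EU libraries overlapped neither FACS group, and 4.17% of tested genes were likewise lower without overlap in wild-type FACS cells than in immunopanned EU. For FACS cells labelled fmr1ko against immunopanned EU, the share over all genes was not computed. The wild-type FACS libraries did not overlap immunopanned total RNA on the deposited scale, a separation whose share over all genes was not computed. With TPM rescaled without crystallin, mitochondrial and CT010467.1 RNA, Cabp5 averaged 20.7 in total RNA and 13.6 in wild-type FACS cells. Cabp5 had no count in any of the 5 wild-type P14 SC EU, 3 wild-type P10 axon-TRAP and 2 LGN EU libraries.

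Pcp2, which encodes a modulator of G proteins, averaged 235 ± 310 TPM in immunopanned EU, where replicate 1 had 593 TPM and the others 55.9 and 56.9 TPM. In SC its means ran to 32.0 ± 9.90 TPM in EU at P10, 20.5 ± 6.32 TPM after the 4-day chase and 17.5 ± 9.76 TPM in axon-TRAP at P10 (SD, n = 3 each), above the mean of the wild-type FACS cells (12.8 ± 13.0 TPM). LGN axon-TRAP libraries had 0 to 0.0716 TPM. Markers of cerebellar Purkinje and granule cells summed to 72.6 to 97.3 TPM in EU at P10 and to 180 to 195 TPM in LGN axon-TRAP, and of the Purkinje cell genes Ppp1r17 had 0 to 2.57 TPM and Slc1a6, a glutamate transporter gene, 25.4 to 38.3 TPM in EU at P10. In LGN axon-TRAP Slc1a6 had 2.75 to 63.6 TPM. Pet100, on the opposite strand, had 12.6 to 40.4 TPM in EU at P10 and 4.41 to 19.5 TPM in LGN axon-TRAP. The part of Purkinje cells or of Pet100 in the Pcp2 level was not tested.

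Prkca had group means of 1.38 ± 1.07 TPM in axon-TRAP at P10 to 17.8 ± 6.47 TPM in FACS cells labelled fmr1ko (SD, n = 3 each). The axon-TRAP libraries labelled fmr1ko came next with 10.5 ± 2.18 TPM, followed by the wild-type FACS cells with 9.97 ± 2.12 TPM. All neighbours in this order overlapped.

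Of the complexins, Cplx4 averaged 609 ± 105 TPM in wild-type FACS cells, 467 ± 68.4 TPM in FACS cells labelled fmr1ko, 282 ± 391 TPM in immunopanned EU and 27.5 ± 24.7 TPM in immunopanned total RNA (SD, n = 3 each). It was the most abundant of the 9 genes in FACS cells. Cplx3 averaged 185 ± 42.6 TPM in immunopanned EU, 148 ± 51.8 TPM in wild-type FACS cells, 79.1 ± 23.1 TPM in FACS cells labelled fmr1ko and 21.4 ± 12.5 TPM in immunopanned total RNA. In SC and LGN its means were 1.15 ± 0.980 TPM in the sarm1ko libraries to 42.0 ± 23.6 TPM in the axon-TRAP libraries labelled fmr1ko (n = 3 each), of which replicates 1 to 3 had 54.5, 56.7 and 14.7 TPM. The subplate markers Ccn2 and Nxph4 had 0 to 0.691 and 1.92 to 18.3 TPM in wild-type P14 SC EU libraries, and the 7 subplate genes summed to 14.6 to 32.7 TPM there. Their part in the Cplx3 level was not tested.

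Vsx1, a homeobox gene of cone bipolar cells, was near the limit of detection. It had counts in 6 of 12 eye libraries at up to 1.42 TPM and in 17 of 36 SC and LGN libraries at up to 0.923 TPM. The 15 group means were 0 to 0.565 TPM and all neighbours overlapped. It was at 0 in all 3 FACS and all 3 axon-TRAP libraries labelled fmr1ko.

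The first comparison set labelled RNA from SC against labelled RNA of eye cells purified by immunopanning as RGC. The 14 RGC genes summed to 189 to 455 TPM in immunopanned EU, where rod genes summed to 4865 to 110400 TPM. In the 5 wild-type P14 SC EU libraries the RGC genes summed to 3681 to 5834 TPM. Of 13 RGC genes tested, 4 were called higher in SC EU and 1 lower. The part of RGC content in the result was not tested. Between wild-type P14 SC EU (replicates 3 to 5) and immunopanned EU, 7 of the 9 genes were lower in SC EU and none was higher (edgeR quasi-likelihood test, Benjamini-Hochberg adjusted p under 0.05). Of the 15540 genes tested, 22.4% were called, 11.4% lower and 11% higher. The median log2 fold change was -7.06 over the 9 genes and 0.11 over all genes. The 2 genes without counts in SC EU lay below the median of the 9 also at their bound, so setting them there could not move it. Oligodendrocyte genes moved the other way, with sums of 7466 to 10440 TPM in SC EU and 10.1 to 30.4 TPM in immunopanned EU, and all 8 were called higher; their part in the result was not tested. In bulk RNA, fewer cells of a type and less RNA per cell cannot be told apart. The share of genes called depended on single libraries: 3485 genes were called with all of them, and 927, 923 and 1973 without SC EU replicate 3, 4 or 5, while 6 or 7 of the 9 genes were called in each of these fits.

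Cplx4 had 0 TPM in all 3 SC EU libraries and 733, 55.8 and 56.6 TPM in immunopanned EU. It was at least 8759-fold lower in SC EU at a floor of 3 counts over the group (adjusted p = 0.00228, edgeR), and at least 2510-fold lower when immunopanned EU replicate 1 was left out, a setting added after seeing the data. Cabp5 also had 0 TPM in all 3 SC EU libraries, against 111, 41.4 and 59.2 TPM in immunopanned EU, and was at least 2430-fold lower (adjusted p = 0.00135). Neither gene gave a single count in SC EU, also not in replicates 1 and 2. Trpm1 had 0.0521, 0.0495 and 0.0655 TPM in SC EU and 49.9, 9.31 and 11.7 TPM in immunopanned EU, a log2 fold change of -10.70 ± 0.90 (SE, adjusted p = 0.00135).

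Grm6 had 0.143, 0.0431 and 0.50 TPM in SC EU and 47.1, 6.01 and 9.07 TPM in immunopanned EU (log2 fold change -7.31 ± 1.26, adjusted p = 0.0062, edgeR). Pcp2 had 4.32, 11.7 and 0.297 TPM in SC EU and 593, 55.9 and 56.9 TPM in immunopanned EU (-7.06 ± 1.33, adjusted p = 0.00855). Cplx3 had 12.8, 11.6 and 7.72 TPM in SC EU and 230, 180 and 145 TPM in immunopanned EU (-5.45 ± 0.61, adjusted p = 0.0022). For these genes no SC EU library reached the lowest immunopanned EU library, a separation that 9.43% of the tested genes showed in this direction.

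Gng13 had 16.4, 6.98 and 13.5 TPM in SC EU and 110, 30.6 and 148 TPM in immunopanned EU, again without overlap (-4.70 ± 1.12, adjusted p = 0.0198, edgeR). Its call was lost without SC EU replicate 3, 4 or 5 (adjusted p = 0.094, 0.082 and 0.059), and with wild-type FACS cells in place of immunopanned EU its log2 fold change was 0.11 (adjusted p = 0.947). Pcp2 was also not called against FACS cells (-1.65, adjusted p = 0.456). Prkca had 1.14, 2.89 and 4.59 TPM in SC EU and 14.9, 2.28 and 2.602 TPM in immunopanned EU, and these ranges overlapped (-2.46 ± 0.90, adjusted p = 0.0795). Vsx1 was not called (-3.39 ± 2.13, adjusted p = 0.289). All 16 rod genes were lower in SC EU in the same fit, with a median log2 fold change of -13.60, and 8 of 8 tested cone genes were lower. Rod genes summed to 110400 TPM in immunopanned EU replicate 1, and the part of other retinal cells in these differences was not tested. Without that replicate, edgeR called the same 7 genes lower and 4099 of 16687 genes in all.

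The second comparison set ribosome-bound RNA of SC axons, wild-type at P14 (replicates 3 to 5), against wild-type FACS eye cells. Of the 9 genes, 5 were lower in axon-TRAP and none was higher, where 44.5% of 17186 tested genes were called, 22.4% lower and 22.2% higher. The median log2 fold change was -2.92 over the 9 genes and 0.07 over all genes. Oligodendrocyte genes summed to 4207 to 14280 TPM in axon-TRAP and 11.9 to 29.4 TPM in FACS cells, and all 8 were called higher, with a median log2 fold change of 12.28; their part in the result was not tested. Cplx4 had 0.0898, 0.558 and 0.83 TPM in axon-TRAP and 489, 662 and 677 TPM in FACS cells (-10.58 ± 0.79, adjusted p = 0.000252, edgeR). Trpm1 had 0.0963, 0.091 and 0.557 TPM in axon-TRAP and 6.50, 9.20 and 8.43 TPM in FACS cells (-5.92 ± 0.84, adjusted p = 0.00221). Both genes were separated between the groups by more than the range of either group.

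Cplx3 had 9.61, 17.8 and 27.3 TPM in axon-TRAP and 207, 127 and 111 TPM in FACS cells (-2.92 ± 0.40, adjusted p = 0.0019, edgeR). Prkca had 1.91, 3.41 and 2.66 TPM in axon-TRAP and 8.26, 12.3 and 9.31 TPM in FACS cells (-1.95 ± 0.39, adjusted p = 0.00668). Cabp5 had 0, 0 and 0.995 TPM in axon-TRAP and 17.8, 6.28 and 12.6 TPM in FACS cells (-5.54 ± 1.77, adjusted p = 0.0372). The ranges of these genes did not overlap, as for 28.0% of the tested genes in this direction, but the Cabp5 call was lost when axon-TRAP replicate 3 or 4 or FACS replicate 2 or 3 was left out.

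Grm6 had 0, 0 and 0.90 TPM in axon-TRAP and 4.86, 1.51 and 3.91 TPM in FACS cells, without overlap, and missed the threshold (-5.02 ± 1.79, adjusted p = 0.0538, edgeR). Pcp2 (-1.22 ± 1.30), Vsx1 (-0.45 ± 1.55) and Gng13 (0.45 ± 0.97) had adjusted p-values of 0.468 to 0.83. Gng13 had 23.7, 11.3 and 22.6 TPM in axon-TRAP and 4.87, 3.40 and 18.3 TPM in FACS cells, which overlapped. With immunopanned EU in place of FACS cells, the Prkca call was lost (-2.14, adjusted p = 0.0545).

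**Figure D2:**
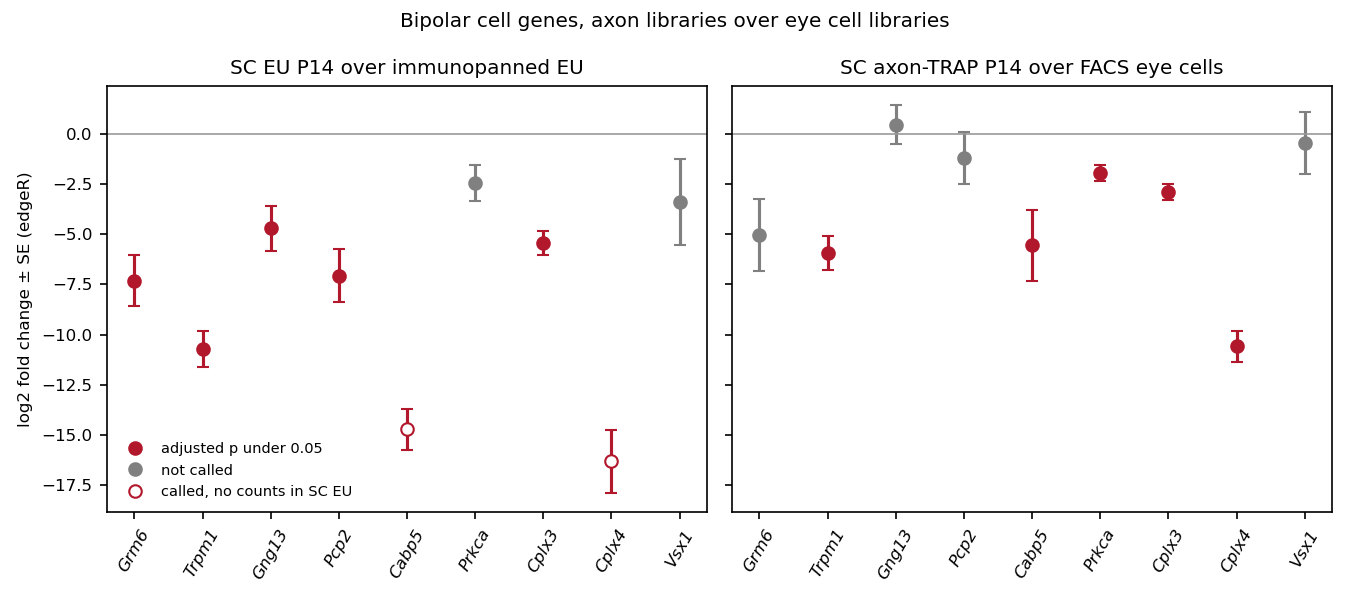
Fitted log2 fold change ± SE of the 9 genes for SC EU over immunopanned EU (left) and SC axon-TRAP over FACS eye cells (right), red where called and open where SC EU had no counts, so that the fitted value is no bound. Gng13 lies at -4.70 in the left panel and at 0.45 in the right.

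Partners of the 9 genes were read from lists made for this description. Of 9 genes whose products work with the receptor of ON bipolar cells, 3 of 8 tested were lower and none higher in SC EU than in immunopanned EU. In axon-TRAP, 4 of 9 were lower and 1 higher than in FACS cells. Of all tested genes, 11.4% were lower and 11% higher in the EU fit, and 22.4% and 22.2% in the TRAP fit. Rgs9bp (-14.83 ± 1.496 for EU and -12.18 ± 0.79 for TRAP), which encodes an anchor of G protein regulators, and Gnb3 (-8.54 ± 1.92 and -9.29 ± 0.45), which encodes the G protein beta subunit of cones and ON bipolar cells, were lower in both. Gnb5, a partner of the same regulators, was lower by the same test (-3.41 ± 0.87 and -3.80 ± 0.39). The exception was Gnao1, the alpha subunit of this G protein and of most neurons, which was higher in axon-TRAP (2.69 ± 0.39, adjusted p = 0.00236, edgeR).

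Of 19 genes of bipolar cell identity or type, 9 of 18 tested were lower and 1 higher in SC EU, and 7 of 19 were lower and 6 higher in axon-TRAP, beside 11.4% lower and 11% higher of all genes in the EU fit and 22.4% and 22.2% in the TRAP fit. The gene higher in SC EU was Syt2, a synaptotagmin of vesicle release (5.93 ± 1.42, adjusted p = 0.0204, edgeR), which was also higher in axon-TRAP (8.40 ± 1.48, adjusted p = 0.00462) and is named after its values were seen. Among those with the smallest adjusted p-values in the EU comparison were Neurod4 (-13.74 ± 1.35), Isl1 (-13.73 ± 1.53) and Scgn (-9.62 ± 1.40). In the TRAP comparison they included Sebox (-12.71 ± 1.07), Isl1 (-10.07 ± 1.26) and Lhx4 (-10.13 ± 1.39). Except for Scgn, which encodes a calcium-binding protein, these encode transcription factors of retinal neurons. Of 10 ribbon synapse genes, 4 were lower and 2 higher in SC EU, and 6 were lower and 2 higher in axon-TRAP. Cacna1f, the calcium channel of photoreceptor and bipolar terminals, was lower in both (-14.30 ± 1.77 for EU and -12.91 ± 0.92 for TRAP), as were Cabp4, which encodes a regulator of that channel (-8.22 ± 1.86 and -11.93 ± 0.76), and Stx3, the syntaxin of ribbon synapses, in EU (-8.10 ± 0.94). Slc17a7, a vesicular glutamate transporter, and Ctbp2, whose gene also encodes the ribbon protein, were lower in axon-TRAP (-10.53 ± 0.44 and -4.07 ± 0.39). Cplx1, a complexin of conventional synapses, was higher in SC EU (3.35 ± 0.75). Rod genes moved with these lists, all 16 of them lower in both comparisons, and their part was not tested.

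Within the eye, FACS cells and immunopanned EU did not differ in any of the 9 genes after adjustment, and 0 of 15694 genes were called (0%), with 2665 at an unadjusted p under 0.05 (edgeR). Of the 9 genes, 6 had an unadjusted p under 0.05, all with lower values in FACS cells, and DESeq2 called these 6, with 2123 of 17377 genes in all. Cabp5 had 17.8, 6.28 and 12.6 TPM in FACS cells and 111, 41.4 and 59.2 TPM in immunopanned EU (log2 fold change -3.49 ± 0.56, adjusted p = 0.137). Gng13 had 4.87, 3.40 and 18.3 TPM in FACS cells and 110, 30.6 and 148 TPM in immunopanned EU (-4.64 ± 1.23, adjusted p = 0.152). Both were separated without overlap, as were Grm6, Trpm1, Pcp2 and Cplx3 (-3.16, -2.60, -5.22 and -1.63, adjusted p = 0.137 to 0.154) with the FACS libraries below, and 4.17% of the tested genes were separated in this direction. Without immunopanned EU replicate 1, edgeR called Cabp5 and Cplx3 lower and Cplx4 higher in FACS cells, with 1777 of 16941 genes in all.

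The rod content of the eye libraries differed over a wide range, and of the 9 genes Cplx4 had the highest correlation with it. Over the 12 eye libraries, log2(TPM + 1) of Cplx4 had a Pearson correlation of 0.99 with the sum of 15 rod genes, given as descriptions since libraries share preparation and 1 library had little of either. The correlation was 0.70 for Cplx3, 0.65 for Prkca, 0.44 for Cabp5, 0.42 for Pcp2, 0.39 for Gng13, 0.31 for Grm6, -0.23 for Trpm1 and -0.27 for Vsx1. Per 1000 TPM of rod genes, Cplx4 had 3.61 to 5.11 TPM in FACS cells labelled fmr1ko, 3.62 to 6.24 TPM in wild-type FACS cells, 6.65 to 11.5 TPM in immunopanned EU and 4.03 and 4.98 TPM in replicates 3 and 2 of immunopanned total RNA, while replicate 1 of total RNA had 0.845 TPM. Cabp5 per 1000 TPM of rod genes was 0.0592 to 0.182 TPM in wild-type FACS cells and 1.01 to 8.51 TPM in immunopanned EU.

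**Figure D3:**
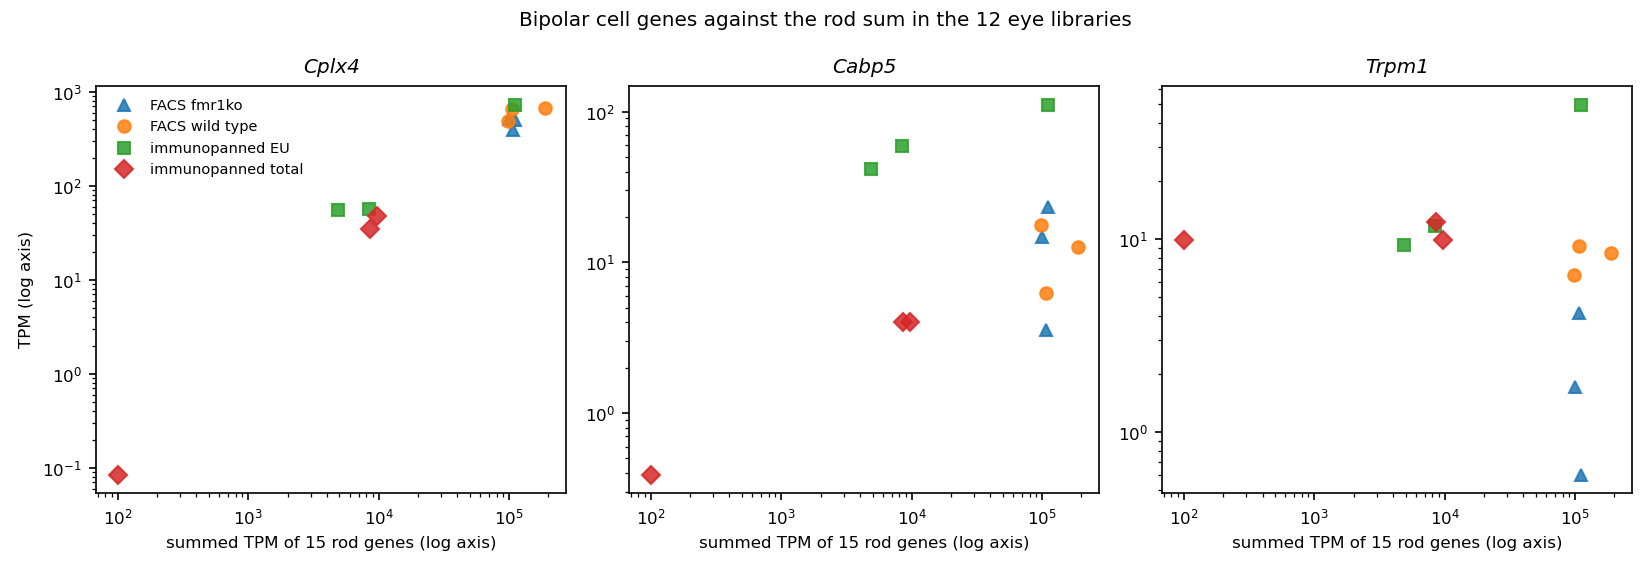
TPM of Cplx4, Cabp5 and Trpm1 against the summed TPM of 15 rod genes in the 12 eye libraries (log axes), with a symbol per group. Cplx4 lies along the rod sum from 0.0842 to 733 TPM, while Trpm1 is at 9.89 TPM in the library with the lowest rod sum.

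Immunopanned EU and immunopanned total RNA did not differ in any of the 9 genes (0 of 13360 genes called, 0%, with 1211 at an unadjusted p under 0.05 and none of the 9, edgeR, and 1207 of 20785 genes called by DESeq2). Cabp5 had 111, 41.4 and 59.2 TPM in EU and 0.389, 4.04 and 4.04 TPM in total RNA, and limma-trend on log2(TPM + 1) called it and Gng13 higher in EU, with 1487 of 13360 genes called higher in all. The TPM ranges of Cabp5 did not overlap, nor did those of Gng13, with 110, 30.6 and 148 TPM in EU and 0, 3.20 and 3.95 TPM in total RNA, as for 46.7% of the tested genes in this direction. With TPM rescaled without crystallin, mitochondrial and CT010467.1 RNA, Cabp5 had 137, 132 and 153 in EU and 0.39, 32.2 and 29.5 in total RNA. The fitted log2 fold changes were 1.61 ± 1.19 and 2.55 ± 1.58. In replicates 2 and 3 of total RNA, crystallin genes made up 30.2% and 33.0% of estimated counts, and in replicate 1 0.000674%.

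Among FACS cells, none of the 8 genes tested differed between the libraries labelled fmr1ko and wild-type ones (0.0593% of 15165 genes called), and none had an unadjusted p under 0.05 (edgeR). Trpm1 had 4.15, 0.60 and 1.72 TPM in FACS cells labelled fmr1ko and 6.50, 9.20 and 8.43 TPM in wild-type cells. Cplx3 had 101, 54.9 and 81.4 TPM in FACS cells labelled fmr1ko and 207, 127 and 111 TPM in wild-type cells. Both were lower without overlap, as were 16.1% of the tested genes, and neither passed the test (-1.46 ± 0.96, adjusted p = 0.642, and -0.40 ± 0.28, adjusted p = 0.67, edgeR).

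In SC EU, none of the 4 genes tested was called between the libraries labelled fmr1ko and wild-type P14 libraries (1.11% of 16546 genes called), with adjusted p-values of 0.346 to 0.955 and no unadjusted p under 0.05. The count of all genes called rested on single libraries, with 0 called without wild-type replicate 3 or 4 and 3497 of 17572 without replicate 5 (edgeR). Cplx3 had 5.40, 2.18 and 7.37 TPM in libraries labelled fmr1ko and 12.8, 11.6 and 7.72 TPM in wild-type libraries (-0.73 ± 0.44). These ranges did not overlap, as for 18.8% of the tested genes in this direction.

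In axon-TRAP, the calls depended on the library labelled fmr1ko replicate 2. With it, 0 of 16115 genes (0%) and none of the 6 genes tested were called (2879 genes at an unadjusted p under 0.05, 2 of the 6 among them, edgeR), and DESeq2 called Prkca higher and Vsx1 lower, with 3350 of 19791 genes in all. Without it, 2226 of 17261 genes were called and Pcp2 was the 1 member called, lower in the labelled fmr1ko libraries (adjusted p = 0.0469, with no counts in both libraries that remained). Pcp2 had 0, 1.91 and 0 TPM in replicates 1 to 3 labelled fmr1ko and 5.08, 15.1 and 4.09 TPM in wild-type libraries. Cplx4 had 0.226, 686 and 0.563 TPM in replicates 1 to 3 labelled fmr1ko and 0.0898, 0.558 and 0.83 TPM in wild-type libraries, so that its fitted log2 fold change was 9.32 ± 3.40 with replicate 2 (adjusted p = 0.209) and -0.94 ± 1.23 without it (adjusted p = 0.666).

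Prkca had 12.6, 8.23 and 10.7 TPM in the 3 libraries labelled fmr1ko and 1.91, 3.41 and 2.66 TPM in wild-type libraries. The groups did not overlap, with 15.1% of the tested genes separated in the same direction, and the log2 fold change was 1.67 ± 0.52 with replicate 2 (adjusted p = 0.142) and 1.54 ± 0.51 without it (adjusted p = 0.0869, edgeR). Grm6 had 3.69 TPM in replicate 1 labelled fmr1ko and 0 in replicates 2 and 3. Replicate 2 had 7.81 TPM of Cabp5, within the range of the wild-type FACS libraries, but 0 of Grm6 and 1.41 TPM of Trpm1, below all 3 of them. Against the FACS libraries labelled fmr1ko, its Cabp5 and Trpm1 lay within the range (3.54 to 23.1 and 0.60 to 4.15 TPM). Its Grm6 lay below theirs (2.84 to 20.1 TPM).

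**Figure D4:**
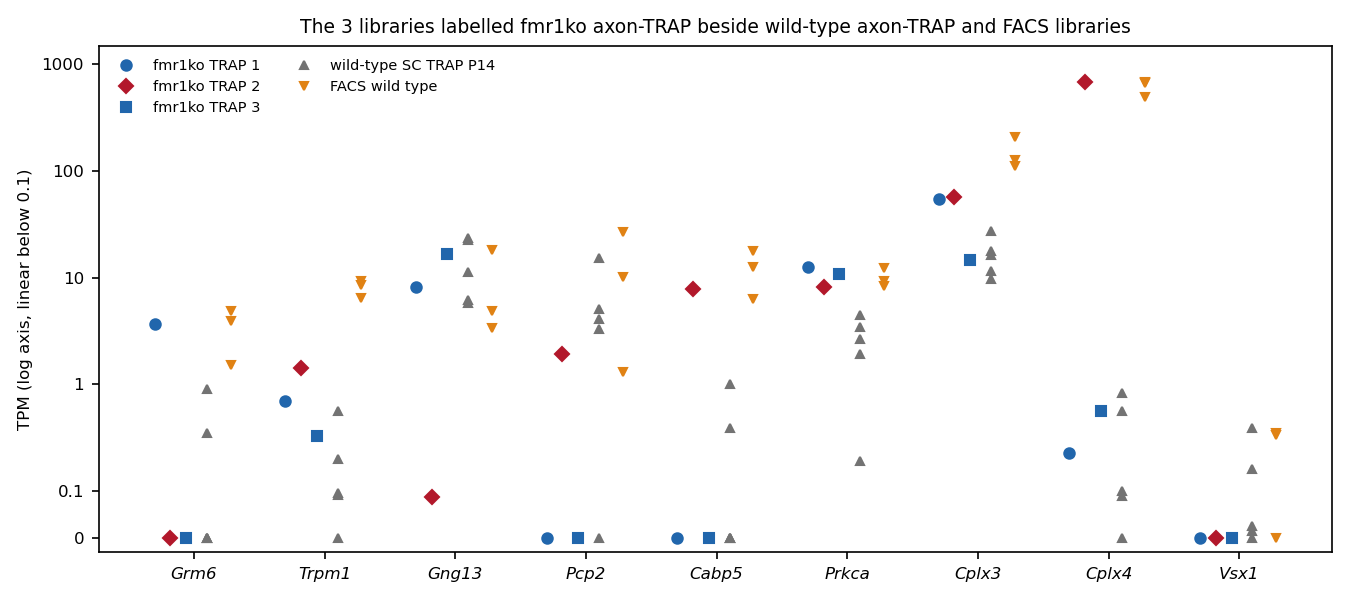
TPM (log axis, linear below 0.1) of the 9 genes in the 3 axon-TRAP libraries labelled fmr1ko, the 5 wild-type P14 axon-TRAP libraries and the 3 wild-type FACS libraries. For Cplx4, replicate 2 (686 TPM) lies with the FACS libraries, and replicates 1 and 3 (0.226 and 0.563 TPM) lie with the wild-type axon-TRAP libraries. This placement does not hold for all 9 genes. For Prkca, all 3 libraries labelled fmr1ko (8.23 to 12.6 TPM) lie above the 5 wild-type axon-TRAP libraries (at most 4.41 TPM).

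The difference between the fmr1ko effects of capture types was tested as an interaction. For axon-TRAP against EU, none of 8 genes tested was called (5.92% of 18561 genes called), and without replicate 2 labelled fmr1ko Pcp2 was called (-8.32 ± 2.43, adjusted p = 0.0394, edgeR), a fitted value that is no bound, since both libraries labelled fmr1ko that remained had 0 TPM, and 2765 of 19738 genes were called in all. For FACS against EU, none of 9 was called (1.73% of 18886 genes called). For the ratio of axon-TRAP to EU at P14 against P10, none of 8 was called (0% of 18660 genes called), with 1 of the 8 at an unadjusted p under 0.05.

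Ribosome-bound and labelled RNA were compared within each age and target. In SC at P14, 14.4% of 16277 genes were called and none of the 6 genes tested, and in LGN 1.40% of 16561 genes and none of 3, with none of these members at an unadjusted p under 0.05. In SC at P10, 17.4% of 15733 genes were called and none of the 4 genes tested. Prkca came nearest there, with 2.35, 1.55 and 0.238 TPM in axon-TRAP and 6.38, 4.08 and 5.57 TPM in EU (-1.77 ± 0.60, adjusted p = 0.0664, edgeR). These ranges did not overlap, as for 28.9% of the tested genes in this direction, and Prkca was called lower by DESeq2, by the fit with no filter and by the fit without axon-TRAP replicate 1, which called 4553 of 19077, 3868 of 25623 and 2770 of 16684 genes in all.

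Between ages, Pcp2 was the member that differed most. It had 4.32, 11.7 and 0.297 TPM in SC EU at P14 and 42.6, 30.4 and 23.0 TPM at P10, without overlap, as for 12% of the tested genes in this direction (-3.06 ± 1.10, unadjusted p = 0.017, adjusted p = 0.167, edgeR). None of the 4 genes tested was called (2.03% of 16262 genes called), DESeq2 called Pcp2 lower (1628 of 17924 genes in all), and without P14 replicate 5 edgeR called Prkca lower (2092 of 16664 genes in all). In axon-TRAP, Pcp2 had 5.08, 15.1 and 4.09 TPM at P14 and 6.45, 25.02 and 20.95 TPM at P10, which overlapped (-2.12 ± 0.91, adjusted p = 0.325), and none of 6 genes was called (0% of 15752 genes, 2275 at an unadjusted p under 0.05, and 749 of 16869 called by DESeq2).

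At 8 weeks against P14 none of 5 genes was called in SC EU (0% of 16942 genes called, 1548 at an unadjusted p under 0.05 and none of the 5), and Cplx3 had 4.31, 2.52 and 16.5 TPM at 8 weeks and 12.8, 11.6 and 7.72 TPM at P14. Without 8-week replicate 3, edgeR called 3385 of 18734 genes, and with all libraries DESeq2 called 1047 of 18764. After the 4-day chase against P10 none of 4 was called (0.00597% of 16746 genes), nor had any of them an unadjusted p under 0.05. Between SC and LGN none of 3 genes was called in EU (0% of 15448 genes, 497 at an unadjusted p under 0.05) or axon-TRAP (0% of 15551, 412 at an unadjusted p under 0.05), none of the 3 being among these in either capture. The SC libraries of these last fits were replicates 1 and 2, from the library series of the LGN samples.

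The axotomized sarm1ko libraries, taken after a 7-day chase, were compared with wild-type P14 EU and with the wild-type 4-day chase, groups that differ in genotype, injury, age and chase together. These comparisons share the sarm1ko libraries, as the EU comparisons of age, genotype and capture above share wild-type P14 libraries. Against P14 EU, 1 of 3 genes tested was called, Cplx3, lower in sarm1ko, where 37.6% of 17171 genes were called, 16.8% higher and 20.8% lower. Cplx3 had 0.42, 2.26 and 0.767 TPM in sarm1ko libraries and 12.8, 11.6 and 7.72 TPM in P14 EU, without overlap, as for 30.3% of the tested genes in this direction (-2.54 ± 0.59, adjusted p = 0.00938, edgeR). With all 5 wild-type P14 libraries it was not called (-2.09, adjusted p = 0.127), where 1011 of 17999 genes were called. RGC genes summed to 398 to 1524 TPM in sarm1ko libraries and 3681 to 5834 TPM in the 5 wild-type P14 EU libraries, and 5 of 12 tested were called lower and none higher. Amacrine genes summed to 116 to 379 TPM in sarm1ko libraries and 349 to 856 TPM in the wild-type ones, with 5 of 10 tested lower and 2 higher. Their part in the Cplx3 difference was not tested.

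Against the 4-day chase, 1 of 4 genes tested was called, Pcp2, lower in sarm1ko, where 21.2% of 17991 genes were called, 9.86% higher and 11.3% lower. Pcp2 had 0.594, 2.52 and 0 TPM in sarm1ko libraries and 13.4, 25.6 and 22.6 TPM in the chase libraries, without overlap, as for 37.5% of the tested genes in this direction (-4.36 ± 1.05, adjusted p = 0.0104, edgeR). The call was lost without sarm1ko replicate 1 (adjusted p = 0.055) or chase replicate 2 (adjusted p = 0.066). Cplx3 had 0.42, 2.26 and 0.767 TPM in sarm1ko libraries and 4.71, 7.64 and 8.16 TPM in chase libraries (-1.43 ± 0.53, adjusted p = 0.068). Prkca was not lower in sarm1ko in either fit (1.08 ± 0.65 and 0.52 ± 0.34, adjusted p = 0.20 and 0.29). In sarm1ko libraries, CT010467.1 took 27.4 to 48.5% of estimated counts and mitochondrial genes 13.1 to 31.4%, against 0.31 to 9.46% and 2.58 to 11.9% in the chase libraries. RGC genes summed to 398 to 1524 TPM in sarm1ko libraries and 3740 to 5189 TPM in chase libraries, and amacrine genes to 116 to 379 TPM and 318 to 454 TPM. The Purkinje cell gene Slc1a6 had 5.87 to 17.1 TPM in sarm1ko libraries and 19.1 to 40.9 TPM in chase libraries. The 12 genes of Purkinje and granule cells summed to 47.5 to 152.4 TPM and 105.5 to 131.4 TPM, which overlapped. Of 9 of them tested, 1 was called higher in sarm1ko and 0 lower. The part of these cell types was not tested. With TPM rescaled without CT010467.1, mitochondrial and crystallin genes, Cplx3 averaged 3.40 in sarm1ko libraries, where the deposited scale gave 1.15 TPM. With those genes left out of the fit, Cplx3 was called lower than in P14 EU and Pcp2 lower than after the chase, with log2 fold changes of -2.55 and -4.36.

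Genes whose log2(TPM + 1) was most like that of each member over the 12 eye libraries, among 8473 genes, are given as descriptions. For Cplx4 they were Plekhb1, Rom1, a rod outer segment protein, and Mir124-2hg (Pearson correlation 0.994, 0.993 and 0.993). For Cplx3 they were Sms, Htatsf1 and Snx2 (0.981, 0.961 and 0.959), and for Prkca Trappc2l, Rmnd1 and Cyth2 (0.972, 0.972 and 0.97). Trpm1 was most like Gabrr1, a GABA receptor subunit of bipolar cells, Scgn and Ube2v2 (0.831, 0.816 and 0.81). Cabp5 was most like Rnf227, Crbn and C1d (0.916, 0.91 and 0.905), and Pcp2 most like Itm2c, Cltb and Glrx3 (0.856, 0.801 and 0.794). Another member stood among the 3 genes for Grm6 (Gng13, 0.822, before Asnsd1 and Cltb), for Gng13 (Cabp5, 0.883, between Cend1 and Psme1) and for Vsx1 (Trpm1, 0.728, between Rpl31-ps24 and Vps35). Trpm1 and Cplx4 had a correlation of -0.19 with each other over these libraries.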

How the data were processed

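Salmon and mm10 are named in the submitters' processing notes. Tool versions, the annotation release and the strand setting were not given there or in the labels. The authors deposited 1 table of estimated counts and 1 table of TPM per Ensembl gene. Symbols and positions came from GENCODE M21, which matched 54097 of 54331 IDs. Groups follow the titles and characteristics. Wild-type P14 SC libraries form 2 series of title codes: replicates 3 to 5 entered all comparisons except SC against LGN, which used replicates 1 and 2.

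Printed levels are TPM as deposited. Estimated counts were rounded and tested in edgeR 4.0.16 (R 4.3.3) with filterByExpr, TMM scaling and the quasi-likelihood F test, two-sided, each comparison by itself, with Benjamini-Hochberg adjustment over all tested genes and a threshold of 0.05. Alternatives were RLE factors, no filter, DESeq2 1.42.0, limma-trend 3.58.1 on log2(TPM + 1), removal of CT010467.1, mitochondrial and crystallin genes, all 5 P14 libraries, a replicate block, other eye cells, and each library left out. Closer looks at single libraries were added after seeing the data. Floors of 3 counts cover counting error only. No 2 libraries of a group had identical counts. The procedure was tested on simulated data.

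The members and lists were chosen with earlier results of these data known. The text names all 9 members, the called members of partner lists with the 4 smallest adjusted p-values or fewer, and the 3 genes most like each member among those with a mean of at least 5 TPM in wild-type FACS cells and no predicted symbol. Marker genes of other cells named beside a result are defining genes of their lists. A gene that the rule on partner lists would name is not reported here.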

Additional observations from a re-analysis of the deposited data

Results flagged for a closer look

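Among the 5 wild-type P14 SC EU libraries, 1 library lay far from the others for 3 genes. Grm6 had 0.50 TPM in replicate 5 and at most 0.143 TPM in the others, Trpm1 had 0.662 TPM in replicate 1 and at most 0.163 TPM in the others, and Vsx1 had 0.254 TPM in replicate 3 and at most 0.0179 TPM in the others. These values rest on 24, 2.01 and 17 estimated counts, and chance marks about 1 in 20 groups in this way. Trpm1 lay on opposite sides in SC and LGN at P14: axon-TRAP exceeded EU by a mean of 0.192 TPM in SC over replicates 3 to 5 (0.248 against 0.0557 TPM), and in LGN axon-TRAP was at 0 in all 3 libraries while EU averaged 0.174 TPM. Over all 5 SC replicates the means were 0.189 TPM in axon-TRAP and 0.198 TPM in EU, and in replicates 1 and 2 axon-TRAP had 0.2002 and 0 TPM and EU 0.662 and 0.163 TPM, so the opposite sides rest on which SC replicates are used. The difference between the targets was not tested, and the LGN EU values rest on 2.11 and 1 estimated counts.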

How the results depend on the processing

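Counts of the 9 genes called stayed within 1.5 times in 200 of 223 alternatives. In the main fits, members were called only in SC EU against immunopanned EU, SC axon-TRAP against FACS and both sarm1ko comparisons. Elsewhere a count of 0 that stayed 0 was taken as unchanged, so the 200 include absent calls. Called and nominal log2 fold changes kept their direction and side in 310 alternatives, lost the call in 12, gained it in 31 and reversed in 2: Gng13 in SC EU with FACS cells as the eye group (0.11), and Cplx4 in axon-TRAP labelled fmr1ko, which ranged from -0.94 without replicate 2 of that label to 9.91 when other libraries were left out. With no filter the count was 1 for FACS against immunopanned EU, 1 for TRAP against EU at P10 and 2 for sarm1ko against chase. With DESeq2 it was 6, 1 and 2 for these, 2 for fmr1ko axon-TRAP and 1 for P14 against P10 EU. With limma-trend it was 2 for immunopanned EU against total RNA, 2 for sarm1ko against P14 and 3 for sarm1ko against chase. With all 5 P14 libraries it was 1 for fmr1ko axon-TRAP and 0 for sarm1ko against P14. Leaving out 1 library at a time gave 6 to 7 in SC EU against immunopanned EU, 4 to 6 in SC axon-TRAP against FACS, 0 to 3 for FACS against immunopanned EU, 0 to 1 for fmr1ko axon-TRAP, TRAP against EU at P10, P14 against P10 EU and sarm1ko against chase, 1 to 2 for sarm1ko against P14, and 1 for the fmr1ko interaction of axon-TRAP with EU without replicate 2. Of all tested genes, these alternatives called 923 to 6252 in SC EU against immunopanned EU and 2803 to 10332 in SC axon-TRAP against FACS. For FACS against immunopanned EU they called 0 to 2123, and for immunopanned EU against total RNA 0 to 1493. For fmr1ko axon-TRAP the range was 0 to 3350, and for TRAP against EU at P10 1073 to 4553. For P14 against P10 EU it was 21 to 2092, and for sarm1ko 1011 to 10376 against P14 and 1546 to 5427 against chase. The causes were not tested.

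In comparisons with 3 pairs, the deviations of same-numbered libraries had correlations from -0.58 to 0.22. They were positive in every pair only for P14 against P10 EU (0.0243, 0.0291 and 0.216). No label says that a number marks a shared animal or preparation, and the numbers were not taken as pairs. With only 2 pairs, the correlations were 0.32 for SC and LGN EU, 0.36 and 0.41 for SC and LGN axon-TRAP and -0.17 and -0.11 for LGN axon-TRAP and EU, and the block called 80, 46 and 483 genes, where 0, 0 and 232 were called without it, and none of the 9. With a replicate block the count was 2 in both sarm1ko comparisons and unchanged or within 1.5 times elsewhere. Scaling moved the median log2 fold change of all genes in axon-TRAP against FACS to 0.25 with RLE factors, where it was 0.07 with TMM, and limma on TPM moved it to 1.01, where it was 0.11, in SC EU against immunopanned EU. Counts under about 3 per library set the limit for Vsx1, Grm6, Cabp5 and Cplx4 in SC and LGN.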
